A study of Mus musculus with 8 samples.

Results

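The receptor for melanin-concentrating hormone, *Mchr1*, and 8 other genes of the neuronal primary cilium were examined in cultured hippocampal neurons that received MCH or vehicle. The 9 genes were chosen by name, without use of their values but with earlier results of these data known. They were the ciliary receptors *Mchr1*, *Sstr3*, *Htr6* and *Gpr161* and the adenylyl cyclase *Adcy3*. The others were the receptor trafficking gene *Tulp3*, the intraflagellar transport gene *Ift88* and the BBSome genes *Bbs1* and *Bbs4*. All 9, of the 45706 genes in the table, were among the 14962 genes that passed the filter on low counts. Both groups were hippocampal neurons of *Wt* C57/Bl6 mice, cultured from embryonic day 18, and they differed only in a 4 h exposure to 1 µM MCH peptide or to its vehicle, H2O. Each group held 4 wells, replicates 1 to 4, and by the study's methods they came from 2 independent cultures, each with 2 wells of either treatment, without a statement of which replicate belonged to which culture. *P* values therefore measure the spread between wells, which may be in part technical. The sample labels carry an Alzheimer's disease tag beside the wild-type genotype, and the neurons were taken as wild type.

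The primary cilium is a single, non-motile projection of the cell surface that most neurons carry. Its membrane concentrates particular G-protein-coupled receptors and, in neurons, the adenylyl cyclase ADCY3, so that ligands such as MCH, somatostatin and serotonin can act on cyclic AMP within it. Intraflagellar transport builds and maintains the cilium, and TULP3 and the BBSome carry membrane receptors into and out of it. MCHR1 is known from hippocampal neurons as one of these ciliary receptors, and it can couple to inhibition of adenylyl cyclase.

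Many cilium genes are controlled by RFX transcription factors, whose binding sites vary and can contain the letters GTTGCC. The promoters of the 9 genes were read for those exact letters only, so neither a match nor its absence settles whether an RFX site is there. The promoter windows came from RefSeq on GRCm38.p6 and ran from 250 bases before to 50 bases after each start. Searched on both strands, 2 of the 9 genes held a match, against 12.5% of the 32851 promoters of all genes, 14.1% of the 27025 genes with a promoter, and 26 of the 57 genes (45.6%) in the lists of intraflagellar transport, motor, BBSome and transition zone genes. Those 57 genes include *Ift88*, *Bbs1* and *Bbs4*, so both matches among the 9 are also counted in the 26. Both windows around the matches are printed 5′ to 3′ with the match in capitals, because they place the letters on or near the start of the transcript in *Ift88* and *Bbs1*. The *Ift88* window lies on the plus strand at chr14:57424080-57424109 and the *Bbs1* window on the minus strand at chr19:4906609-4906638. The capitals of *Ift88* are the reverse complement of the searched letters.
Ift88: ggagtcgcgcctGGCAACggctgggcgtcc
Bbs1: atggctgagctgGTTGCCaaggcgacgcct

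The matches began at base 22 after the start in *Ift88* and at base 2 in *Bbs1*. *Mchr1* had no match in its window, and the 250 bases before its start, on the plus strand at chr15:81235249-81235498, are shown because it is the receptor of the peptide that was applied.
Mchr1: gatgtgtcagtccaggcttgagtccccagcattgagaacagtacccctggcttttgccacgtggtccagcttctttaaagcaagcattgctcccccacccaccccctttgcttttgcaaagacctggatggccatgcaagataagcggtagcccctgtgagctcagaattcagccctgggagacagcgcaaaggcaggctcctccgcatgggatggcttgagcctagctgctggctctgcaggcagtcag

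Library totals ranged from 26083936 to 31844861 estimated counts, with a median of 27997746 per well. After the treatment means were removed, the first principal component accounted for 59.8% of the variance and set replicates 1 and 2, whether MCH-treated or vehicle-treated, apart from replicates 3 and 4. The levels of the 9 genes were therefore compared both between treatments and between these 2 sides. Levels of different genes are given as TPM, Salmon's transcript abundances scaled for transcript length and depth. Differences of 1 gene between wells are given on CPM, reads per library after edgeR's TMM scaling. In bulk RNA, fewer cells of a type and less RNA per cell cannot be told apart.

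*Mchr1* (ENSMUSG00000050164, chr15:81235499-81238964 on GRCm38) was expressed at a low to moderate level in every well. Its single annotated transcript, Mchr1-201 of 2188 bases, received 248 to 300 reads per well, and its level was 8.60 ± 0.505 TPM (mean ± SD, n = 8 wells), higher than that of 36.8% of the genes tested. *Pmch*, which encodes the peptide precursor, had 1 read in total over the 8 wells, in MCH replicate 2, which is under the floor of 3 counts. The receptor's transcript was thus present in cultures in which that of its ligand was not detectable at this depth.

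In order of TPM, the 9 genes ran from *Bbs4* with 44.8 ± 2.23 and *Adcy3* with 38.3 ± 2.57, over *Sstr3* with 26.6 ± 1.33, *Bbs1* with 18.5 ± 0.947 and *Gpr161* with 15.1 ± 1.06, to *Tulp3* with 13.1 ± 3.41 and *Ift88* with 11.5 ± 1.47. *Mchr1* followed at rank 8, and *Htr6* with 4.72 ± 0.660 was lowest (mean ± SD, n = 8 wells each). Among the ciliary receptors of the 9 genes, the somatostatin receptor *Sstr3* and the orphan receptor *Gpr161* therefore stood above *Mchr1*, and the serotonin receptor *Htr6* below it. The ranges over wells of *Mchr1* overlapped neither that of *Ift88* above it nor that of *Htr6* below it, and *Sstr3* overlapped neither *Adcy3* nor *Bbs1*. The other neighbours in this order overlapped: *Bbs4* with *Adcy3*, *Bbs1* with *Gpr161*, *Gpr161* with *Tulp3* and *Tulp3* with *Ift88*. Further apart in the order, *Bbs1* and *Gpr161* lay wholly above *Ift88*, while the wide range of *Tulp3*, 9.05 to 19.2 TPM, also overlapped that of *Bbs1* and that of *Mchr1*, 7.73 to 9.45 TPM.

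**Figure D1:**
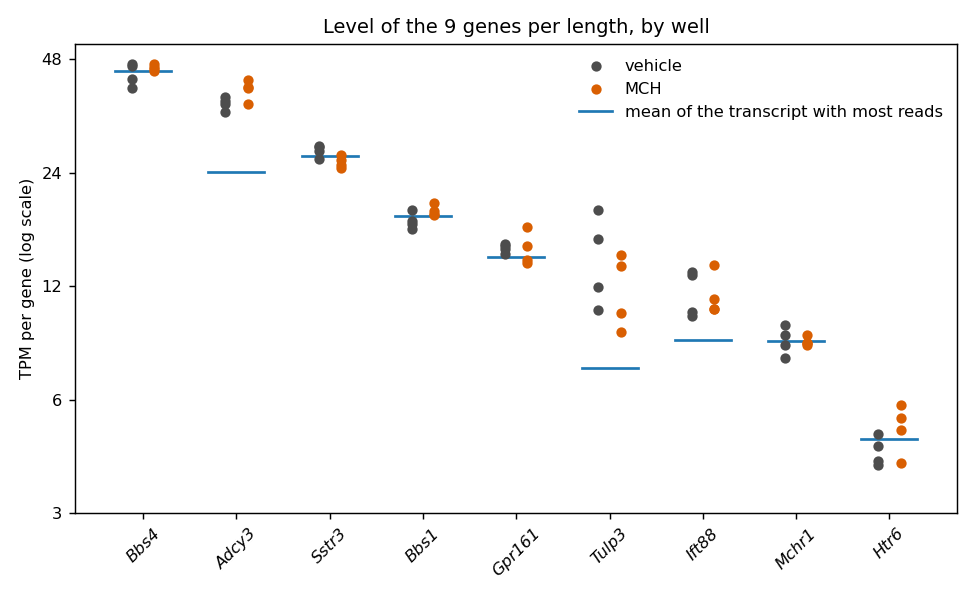
Level of each gene in TPM (log scale), summed over its transcripts, with 1 point per well for the 4 vehicle-treated (grey) and the 4 MCH-treated wells (orange). The blue line is the mean over all 8 wells of the transcript with the most reads: it equals the mean of the sum where 1 transcript carries all reads, as in *Mchr1*, and lies below it in *Adcy3*, *Tulp3*, *Ift88* and, by little, *Gpr161*.

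The spread of *Tulp3* and *Ift88* in TPM came with short transcripts, on which a few reads carry a large level. Transcripts under 700 bases held 3.53% of the reads but 32.7% of the TPM of *Tulp3*, and 3.54% of the reads but 21.5% of the TPM of *Ift88*. Counted on the transcript with the most reads alone, *Tulp3* was at 7.27 ± 0.905 and *Ift88* at 8.63 ± 0.303 TPM (n = 8 wells), and *Mchr1* moved to rank 7, above *Tulp3* and beside *Ift88*. *Adcy3*, at 24.1 ± 1.49 TPM on Adcy3-201, then ranked below *Sstr3*. The 5 genes *Mchr1*, *Sstr3*, *Htr6*, *Bbs1* and *Bbs4* had all their reads on 1 transcript, so their TPM do not depend on that choice.

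In response to MCH, none of the 9 genes passed the threshold of 0.05 in the quasi-likelihood test of edgeR, with Benjamini–Hochberg adjustment over all genes tested. The same test called 0.234% of all genes, 31 lower and 4 higher. Of the 9 log2 differences, 5 were above and 4 below 0, with a median of 0.004 beside −0.003 over all genes, and the median size was 0.0651 beside 0.0706. Without adjustment, 1 of the 9 had a *P* value under 0.05 (8.50% of all genes), *Sstr3*. DESeq2 and limma voom also called 0 of the 9. The MCH-treated and vehicle-treated wells overlapped in all 9 genes, while 6.03% of all genes tested had no overlap.

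**Figure D2:**
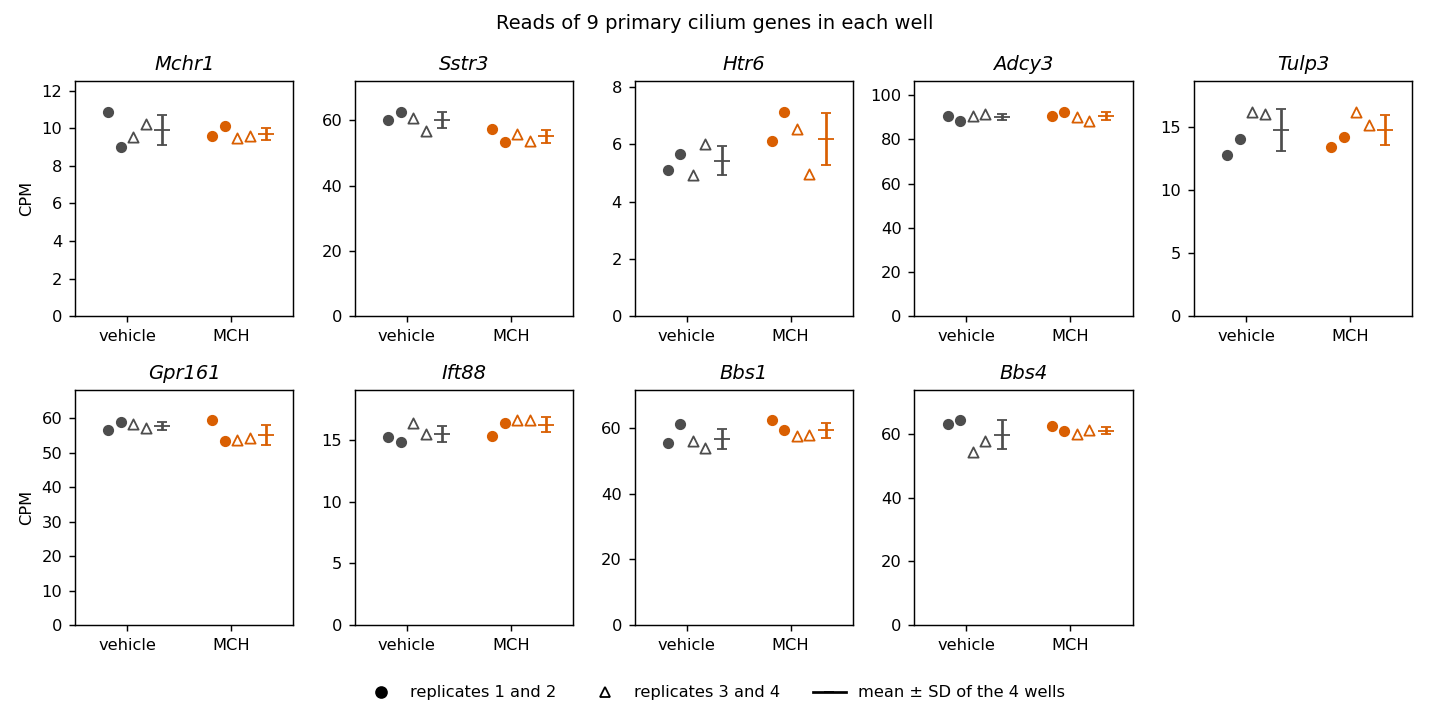
CPM of each gene in every well, on axes that start at 0. Filled circles are replicates 1 and 2, open triangles replicates 3 and 4, and the bar beside each group is the mean ± SD of its 4 wells: the treatments overlap in all 9 genes, and *Tulp3* is the only one whose sides do not.

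The receptor of the applied peptide did not pass the test in either direction. *Mchr1* was at 10.9, 8.99, 9.55 and 10.2 CPM in vehicle replicates 1 to 4 and at 9.58, 10.1, 9.48 and 9.58 CPM in MCH replicates 1 to 4. All 4 MCH-treated wells lay inside the range of the vehicle-treated wells. The log2 difference was −0.03 (standard error 0.08, edgeR adjusted *P* = 0.994), and its 95% interval, −0.21 to 0.14, covers changes of −13.3% to 10.4%.

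The other ciliary receptors fell on both sides of 0. *Sstr3* (ENSMUSG00000044933, chr15:78537008-78544685), which couples to inhibition of cyclic AMP as *Mchr1* does, was at 59.9, 62.6, 60.6 and 56.7 CPM with vehicle and at 57.4, 53.3, 55.7 and 53.7 CPM with MCH. Only MCH replicate 1 reached into the vehicle range, above vehicle replicate 4. The log2 difference was −0.12 (standard error 0.04, 95% interval −0.22 to −0.03), with an edgeR adjusted *P* value of 0.440 and, in a two-sided exact permutation test over the 70 assignments of treatments to wells, *P* = 0.0571. That test gave 0.0286, the smallest value those assignments allow, when libraries were scaled by their totals alone. At every replicate number *Sstr3* was lower with MCH. The exact test within the 4 pairs of the same number, in which the smallest two-sided *P* value is 0.125, gave that value.

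*Htr6* (ENSMUSG00000028747, chr4:139061108-139075570), whose serotonin receptor stimulates cyclic AMP, was at 4.94 to 6.02 CPM with vehicle and 4.95 to 7.13 CPM with MCH. Its ranges overlapped over almost the whole vehicle range, and the log2 difference of 0.19, the largest of the 9 in size, also had the widest interval, −0.11 to 0.48. *Gpr161* (ENSMUSG00000040836, chr1:165295789-165326745), whose product raises cyclic AMP in the cilium and holds the Hedgehog pathway off, was at 56.5 to 58.9 CPM with vehicle. In MCH replicates 2 to 4 it was at 53.4 to 54.2 CPM, below all vehicle-treated wells, and in MCH replicate 1 at 59.4 CPM, above them. The log2 difference over all wells was −0.07 (95% interval −0.16 to 0.03).

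*Adcy3* (ENSMUSG00000020654, chr12:4133103-4213525), the cyclase on which these receptors converge, varied least of the 9 genes in CPM. It lay between 88.1 and 92.5 CPM in all 8 wells, a coefficient of variation of 1.61%, and the treatments overlapped. The log2 difference was 0.004 with a 95% interval from −0.07 to 0.08, that is, from −4.64% to 5.40%, the narrowest of the 9. The interval of *Htr6*, by comparison, reached from −7.11% to 39.4%. In TPM *Adcy3* was less even, at 34.8 to 42.4, and with an offset for the mean transcript length in each well its log2 difference was 0.11 (standard error 0.05, edgeR adjusted *P* = 0.769). Adcy3-203, a retained intron of 532 bases, held 0.458% of the reads of *Adcy3* but 6.46% of its TPM. It was at 0 to 2.38 TPM with vehicle and 0.482 to 6.99 TPM with MCH, and its part in the 0.11 was not tested.

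*Tulp3* (ENSMUSG00000001521, chr6:128321161-128355851), the adaptor that brings receptors such as *Gpr161* into cilia, was at 12.8, 14.1, 16.3 and 16.0 CPM with vehicle and at 13.4, 14.3, 16.2 and 15.2 CPM with MCH. The wells differed by replicate number rather than by treatment, and the log2 difference with MCH was −0.001 (95% interval −0.21 to 0.21), or −0.29 with the length offset (standard error 0.22, edgeR adjusted *P* = 0.872). *Ift88* (ENSMUSG00000040040, chr14:57424062-57517936), a core subunit of the transport complex, was at 14.8 to 16.4 CPM with vehicle. Of the MCH-treated wells, replicate 1 lay within that range at 15.3 CPM and the others just above it at 16.4 to 16.6 CPM, with a log2 difference of 0.07 (95% interval −0.06 to 0.20). It was higher with MCH at every replicate number (exact test within pairs, *P* = 0.125, the smallest possible).

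The BBSome subunits *Bbs1* (ENSMUSG00000006464, chr19:4886878-4906628) and *Bbs4* (ENSMUSG00000025235, chr9:59321990-59353508), which help to export receptors from the cilium, overlapped between treatments as well. *Bbs1* was at 53.8 to 61.1 CPM with vehicle and 57.7 to 62.3 CPM with MCH, a log2 difference of 0.07 (95% interval −0.04 to 0.17). *Bbs4* was at 54.3 to 64.2 CPM with vehicle and 59.8 to 62.3 CPM with MCH, a log2 difference of 0.03 (95% interval −0.09 to 0.15). The MCH-treated wells of *Bbs4* lay inside the vehicle range, which was the wider of the 2.

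**Figure D3:**
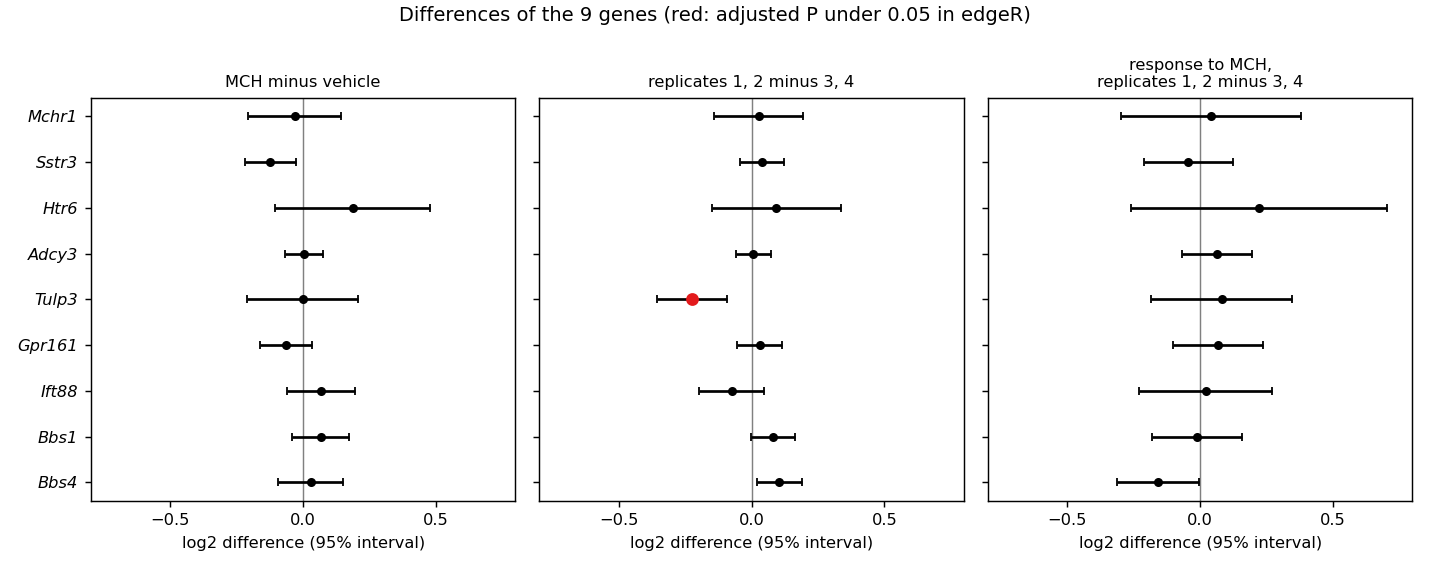
Log2 differences of the 9 genes with 95% intervals, from left to right for MCH minus vehicle, for replicates 1 and 2 minus replicates 3 and 4, and for the response to MCH in replicates 1 and 2 minus that in replicates 3 and 4. *Tulp3* between the sides (red) is the only value with an edgeR adjusted *P* value under 0.05.

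The second comparison asked how far the cilium genes differed between the sides. The split was itself read from these counts, so its *P* values describe these wells and are not independent evidence. Of the 9 genes, 1 passed, *Tulp3*, against 34.7% of all genes tested. The median size of the 9 log2 differences was 0.0758, below the 0.118 over all genes, and 7 were above and 2 below 0. The summed CPM of the 9 genes ranged from 367 to 379 on the side of replicates 1 and 2 and from 361 to 367 on the other.

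*Tulp3* was lower in replicates 1 and 2, with 12.8 and 14.1 CPM with vehicle and 13.4 and 14.3 CPM with MCH, than in replicates 3 and 4, with 16.3 and 16.0, and 16.2 and 15.2 CPM. The sides did not overlap, as in 29.6% of all genes tested, and the log2 difference was −0.22 (standard error 0.06, edgeR adjusted *P* = 0.00916), or −14.3% relative to replicates 3 and 4. With the length offset it was −0.30 and did not pass (edgeR adjusted *P* = 0.345).

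Without adjustment, 2 of the 9 had a *P* value under 0.05 (43.0% of all genes), *Tulp3* and *Bbs4*. It was at 63.0, 64.2, 62.3 and 60.7 CPM in replicates 1 and 2 (vehicle, then MCH) and at 54.3, 57.6, 59.8 and 61.1 CPM in replicates 3 and 4. MCH replicate 4 was above MCH replicate 2, so the sides overlapped, and the log2 difference of 0.10 (standard error 0.04) just missed the threshold (edgeR adjusted *P* = 0.0509). It passed with DESeq2 size factors (edgeR adjusted *P* = 0.0385) and without the filter on low counts (edgeR adjusted *P* = 0.0235).

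The other 7 genes did not pass the test between the sides. *Mchr1* was at 8.99 to 10.9 CPM in replicates 1 and 2 and 9.48 to 10.2 CPM in replicates 3 and 4, a log2 difference of 0.03 with a 95% interval of −0.14 to 0.19. The intervals of *Sstr3* (−0.04 to 0.12), *Adcy3* (−0.06 to 0.07) and *Gpr161* (−0.05 to 0.12) were of similar or smaller width, and that of *Htr6* (−0.15 to 0.34) was wider. *Ift88* and *Bbs1*, whose promoters held GTTGCC, had log2 differences of −0.08 and 0.08. With the length offset that of *Ift88* was −0.24 (standard error 0.09, edgeR adjusted *P* = 0.113).

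The response to MCH itself was then compared between the sides. None of the 9 genes passed this test in edgeR, DESeq2 or limma voom, against 0.0267% of all genes (4 genes), and 1 of the 9 had an unadjusted *P* value under 0.05 in edgeR, *Bbs4*, against 7.60% of all genes. The response of *Bbs4* was −0.05 on the first side (replicates 1 and 2) and 0.11 on the other, a difference of −0.16 (standard error 0.07, edgeR adjusted *P* = 0.646). The response of *Mchr1* was −0.005 and −0.05, a difference of 0.04 (95% interval −0.30 to 0.38). That of *Sstr3* was −0.15 and −0.10, below 0 on both sides.

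Lists of other cilium genes were examined in the same fits, 115 tested genes beside the 9. In the response to MCH, 10 of the 115 had an unadjusted *P* value under 0.05 (8.50% of all genes), and 1 passed after adjustment in edgeR and in limma voom, *Nedd9*, a scaffold protein that activates the kinase Aurora A during ciliary disassembly. It was at 27.2, 27.8, 28.1 and 26.5 CPM with vehicle and 22.7, 20.9, 21.8 and 21.9 CPM with MCH, every MCH-treated well below every vehicle-treated well. The log2 difference was −0.33 (standard error 0.05, edgeR adjusted *P* = 0.0305), and lower genes made up 0.207% of all genes tested. Its direction held without any 1 well, but its adjusted *P* value was then 0.0539 to 0.152 in edgeR, with the lowest without MCH replicate 1 and the highest without vehicle replicate 1, and 0.141 with the length offset. DESeq2 called *Nedd9* and *Unc119b*. The other 12 genes of the assembly and disassembly list, from *Aurka* at −0.29 to *Kif24* at 0.37, did not pass.

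In the transport machinery, none of the 17 IFT-B genes, 6 IFT-A genes and 8 motor genes tested passed with MCH. The IFT-B differences ran from −0.04 for *Ift20*, a subunit also found at the Golgi, to 0.20 for *Ttc30b* on the log2 scale, with 13 of 17 above 0 and a median of 0.02. IFT-A ran from −0.25 (*Ift43*) to 0.10 (*Ttc21b*) around a median of −0.01, and the motors from −0.06 for *Dync2li1* to 0.27 for *Dync2h1*, the heavy chain of the retrograde motor, around −0.01. These medians lay close to that of all genes, −0.003.

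The same held for the genes that sort cargo. None of the 13 BBSome genes and partners passed, from *Bbs12* at −0.15 to *Bbs10* at 0.28, around a median of 0.03. None of the 19 transition zone genes, the gate at the ciliary base, passed either, from *Tmem216* at −0.18 to *Cc2d2a* at 0.25, around 0.02. Of the 7 genes for lipid-modified cargo, with a median of −0.03, *Unc119b*, a carrier of myristoylated proteins into the cilium, was at 57.9 to 63.9 CPM with vehicle and 53.6 to 54.7 CPM with MCH. Its log2 difference of −0.18 (standard error 0.04) did not pass (edgeR adjusted *P* = 0.148). With the replicate number as a block it passed, with an edgeR adjusted *P* value of 0.0125, in a fit that called 3.98% of all genes and 0 of the 9. It also passed with the side as a block, which called 4.46% of all genes and 0 of the 9.

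Of 17 other receptors reported in cilia, 14 were tested and none passed without a block. *Galr2* and *Prlhr* were under the filter and *Galr3* was not analysed here. The differences ran from −0.63 for *Ptger4*, a prostaglandin E2 receptor at 0.38 to 1.30 CPM, to 0.56 for *Npy2r*, a neuropeptide Y receptor. Their median was −0.15. With a filter of CPM of at least 1 in 4 wells, 7 of these receptors were tested and the median was 0.05. *Npy2r* was at 3.45, 2.21, 3.00 and 3.46 CPM with vehicle and 3.96, 4.20, 5.43 and 4.21 CPM with MCH. It did not pass without a block (edgeR adjusted *P* = 0.393). It passed with the replicate block (edgeR adjusted *P* = 0.0368) and the side block (edgeR adjusted *P* = 0.0290). Those blocked fits called 3.98% and 4.46% of all genes. The dopamine receptor *Drd1* was at 10.6 to 11.3 CPM with vehicle and 8.62 to 9.87 CPM with MCH, every MCH-treated well below every vehicle-treated well. Its log2 difference of −0.26 (standard error 0.07) did not pass without a block (edgeR adjusted *P* = 0.266) and passed with the side block, at −0.27 (edgeR adjusted *P* = 0.0441).

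None of the 15 Hedgehog pathway genes tested passed with MCH, from *Evc* at −0.13 to *Gli3* at 0.36, around a median of 0.08. None of the 7 RFX and other ciliary transcription factors passed without a block, from *Rfx4* at −0.05 to *Rfx1* at 0.31, around 0.16. *Rfx1* was at 13.2 to 15.6 CPM with vehicle and 16.3 to 18.9 CPM with MCH, without overlap (edgeR adjusted *P* = 0.216). With the replicate block, *Rfx1* (0.31, edgeR adjusted *P* = 0.00715) and *Rfx3* (0.22, edgeR adjusted *P* = 0.00236) passed, both higher with MCH. That fit called 3.98% of all genes. *Rfx3* was at 60.0, 53.3, 69.3 and 64.5 CPM with vehicle and 67.0, 63.7, 78.4 and 78.3 CPM with MCH, higher with MCH at every replicate number.

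Between the sides, the picture of the wider lists was uneven. Hedgehog genes and ciliary transcription factors were mostly lower in replicates 1 and 2, while the machinery lists had calls in both directions. Of the 115 genes, 35 passed in edgeR, against 34.7% of all genes. In the Hedgehog list, 10 of 15 genes were lower and 1 higher, against 18.6% and 16.1% of all genes, with a median of −0.41 beside 0.005 over all genes. The list's member *Gpr161* was not among them. The transcription factor *Gli3*, a repressor or activator of Hedgehog targets, was at 1.32 to 2.36 CPM in replicates 1 and 2 and 5.28 to 8.21 CPM in replicates 3 and 4, a log2 difference of −1.97 (standard error 0.14).

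*Smo*, the transducer that enters the cilium when the pathway is on, was at 3.98 to 5.87 and 15.1 to 16.9 CPM (log2 difference −1.68, standard error 0.09). *Ptch1*, the receptor and a target of the pathway, was at 23.9 to 35.9 and 36.5 to 40.0 CPM (−0.40, standard error 0.08), and the antagonist *Hhip* was the gene that was higher, at 3.45 to 4.73 against 2.04 to 2.46 CPM (0.87, standard error 0.13). *Gli1*, a direct target, had 8 reads in total over the 8 wells and was under the filter.

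Of the 7 transcription factors, 5 were lower in replicates 1 and 2 and none higher, with a median of −0.34. *Rfx4* was at 2.70 to 3.81 CPM in replicates 1 and 2 and 9.48 to 10.6 CPM in replicates 3 and 4 (log2 difference −1.64, standard error 0.11), and *Foxj1*, the regulator of motile cilia, at 4.84 to 5.91 and 13.3 to 14.9 CPM (−1.32, standard error 0.08). *Rfx3*, at 53.3 to 67.0 and 64.5 to 78.4 CPM, overlapped between the sides and differed by −0.25 (standard error 0.04). With the length offset, 6 Hedgehog genes and 3 transcription factors were lower. That fit called fewer of all genes, as given in the last section, and 42.0% of its calls were higher.

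**Figure D4:**
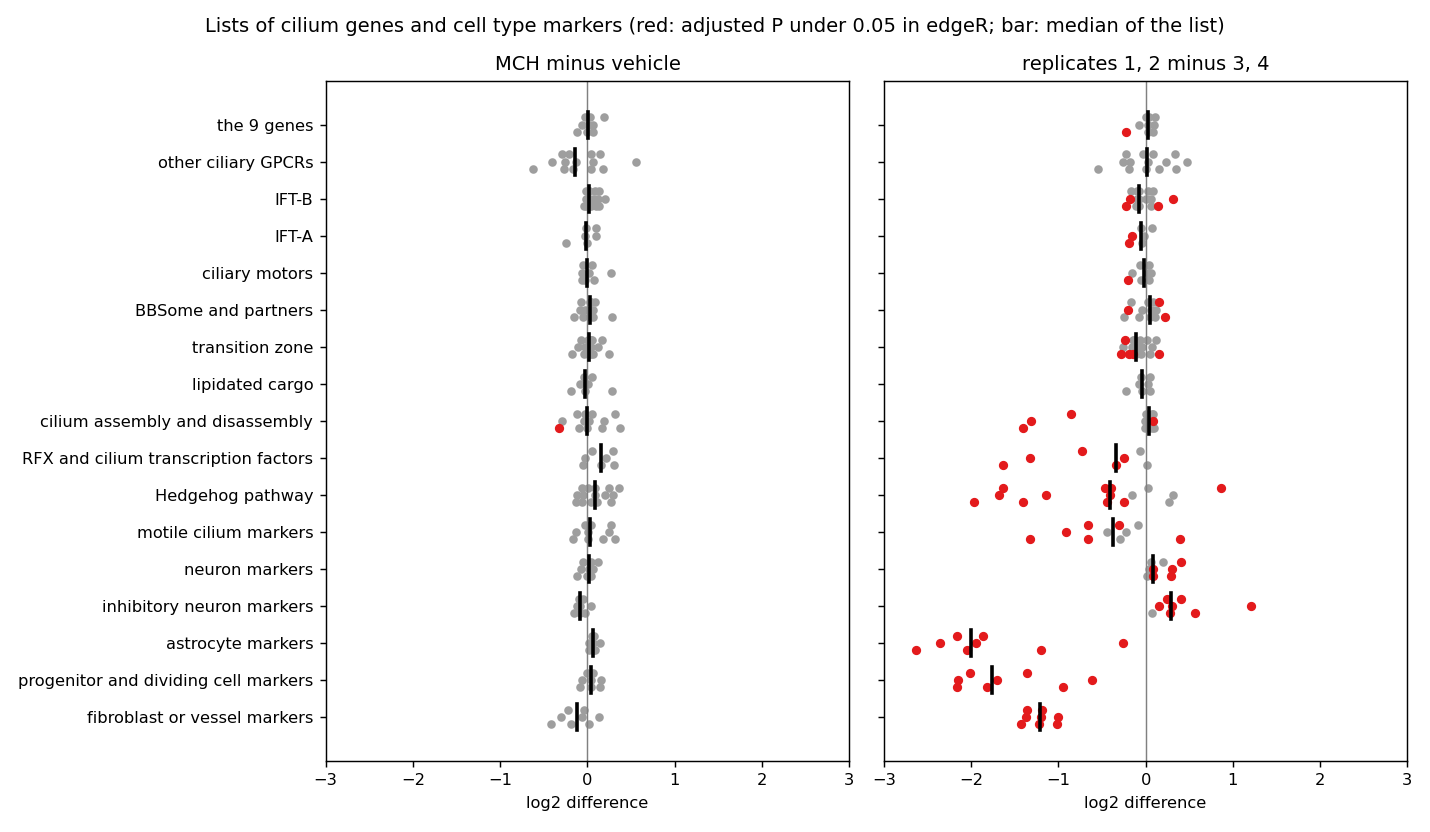
Log2 differences of the genes of each list for MCH minus vehicle (left) and for replicates 1 and 2 minus replicates 3 and 4 (right), 1 point per gene, with genes called in red and the median of each list as a black bar. With MCH, *Nedd9* is the only red point. Between the sides, astrocyte, progenitor and fibroblast or vessel markers lie to the left of 0, as do most Hedgehog genes and transcription factors, while the medians of the 9 genes and the IFT, motor, BBSome and transition zone lists lie between −0.11 and 0.05.

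Markers of most cell types moved with the sides. Counts of markers called are to be read against 18.6% of all genes lower and 16.1% higher in replicates 1 and 2. All 8 astrocyte markers tested were lower in replicates 1 and 2, with a summed 1090 to 1200 CPM against 2325 to 2658 CPM, as were all 8 markers of progenitors or dividing cells (45.6 to 53.9 against 106 to 121 CPM) and all 8 of fibroblasts or vessels (30.1 to 40.8 against 87.7 to 91.9 CPM). Of the oligodendrocyte lineage markers, 4 of the 6 tested were lower (57.3 to 67.9 against 126 to 147 CPM), with *Sox10* and *Mog* at no more than 3 reads in any well. Of the microglial markers 2 of 5 were lower, with *Tmem119* at that floor. The summed CPM of the microglial markers overlapped between the sides (23.9 to 28.0 against 26.4 to 34.2), and 2 of the 5 log2 differences were above 0. Of the neuron markers 5 of 9 were higher in replicates 1 and 2 and none lower (7239 to 7541 against 6644 to 6832 CPM), and of the inhibitory neuron markers 7 of 8 were higher (2744 to 2984 against 2213 to 2484 CPM). Of 10 motile cilium markers, 5 were lower and 1 higher (50.6 to 55.9 against 69.1 to 73.2 CPM), and *Sntn* was at no more than 3 reads in any well. The part of these markers in the differences of *Tulp3*, the Hedgehog genes and the transcription factors was not tested. With MCH and without a block, none of the 62 markers tested passed in edgeR, DESeq2 or limma voom, and 1 had an unadjusted *P* value under 0.05 in each.

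In the machinery of the cilium, calls between the sides are to be read against the 34.7% of all genes that passed. In IFT-B, 2 of 17 genes were higher in replicates 1 and 2 and 2 lower, among them *Ift172* at 51.8 to 58.6 against 43.3 to 47.2 CPM (log2 difference 0.31, standard error 0.04) and *Ift74* at 14.7 to 17.8 against 17.7 to 20.0 CPM (−0.23, standard error 0.06). In IFT-A, 2 of 6 were lower, with *Wdr35* at −0.19, and of the motors 1 of 8. With the length offset, which called fewer of all genes, no IFT-B gene was higher and 1 was lower, and no IFT-A gene passed. *Ift172* was then at 0.09 (edgeR adjusted *P* = 0.567) and *Wdr35* at −0.11 (edgeR adjusted *P* = 0.244). In the BBSome list 2 of 13 were higher, with *Bbip1* at 0.22, and 1 lower, and in the transition zone 4 of 19 were lower, with *Cc2d2a* at −0.28, and 1 higher. No gene of the lipid-modified cargo list and none of the 14 other ciliary receptors passed between the sides. In the assembly and disassembly list, 3 of 13 were lower, *Plk1*, *Nek2* and *Kif24*, the first 2 of them cell cycle kinases, and 1 higher, *Kif2a*.

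The genes whose pattern over wells was most like that of *Mchr1* were in none of these lists. Among 13398 genes with a mean of at least 1 CPM, the Pearson correlation of log2 CPM with *Mchr1* over the 8 wells was highest for *Naa80* (0.909), *Ppie* (0.904) and *Vps36* (0.900). Among the 9 genes it ran from −0.59 for *Bbs1* to 0.56 for *Adcy3*, which 365 genes exceeded. These values share the same 8 libraries and rest on a gene whose CPM varied by 5.94% between wells. At 248 to 300 reads per well, counting error was not separated from that variation. The highest correlations were also picked from all 13398 genes.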

How the data were processed

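Poly-A RNA of 8 wells was sequenced by the authors and quantified in the nf-core/rnaseq pipeline with Salmon. The submitters' processing notes name Salmon, GRCm38, R 4.0.3 and DESeq2 1.13.0. The authors deposited estimated counts per gene, which are Salmon's expected counts summed over transcripts, with no scaling (9.13% of the values are not whole). Per well and transcript, the authors also deposited TPM, scaled by Salmon for length and depth, beside effective lengths and estimated counts. For 99.0% of the genes, transcripts added up to the gene table to within 1 read. Sample columns without a match to a sample numbered 0. GENCODE vM21 (GRCm38), possibly not the release the authors used, named 45143 of 45706 genes and 108214 of 109617 transcripts. Coordinates are from that annotation, and promoters from RefSeq on GRCm38.p6, which held all 9 genes.

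Estimated counts were rounded and tested with edgeR 4.0.16 in R 4.3.3. Settings were TMM scaling, the filterByExpr filter (minimum count 10, minimum total 15, groups by treatment), a robust quasi-likelihood F test, Benjamini–Hochberg adjustment over the 14962 genes tested and a threshold of 0.05. Treatment was the only term for MCH, treatment and side were the terms for the sides, and their product gave the difference in response. The standard error is the log2 difference over the square root of F, and intervals are at 95%. CPM use the TMM factors. The code was tested on simulated counts. Library totals of 26083936 to 31844861 allow no distinction from absence under 3 counts, and that floor covers counting error only. The 95% intervals also include the spread between wells that the quasi-likelihood fit estimates.

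The treatments share replicate numbers. Deviations from the treatment means correlated at 0.445 to 0.545 within the 4 pairs with the same number, at 0.475 to 0.521 between other wells of the same side and at −0.548 to −0.438 across the sides. Since every pair exceeded 0.1, the replicate number was also fitted as a block. The range within these pairs enclosed that of other wells of the same side. The values therefore show the sides, and no pairing by number within a side. Neither the labels nor the methods say what a number marks. Blocked values, and the exact tests within pairs, are given with that limit, the former where they change a call.

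The members and lists were chosen with earlier results of these data known. One gene of the chosen set is not reported here. Genes named are the 9, *Pmch*, in each cilium list those called with MCH or otherwise the lowest and highest log2 difference, and the 3 genes most like *Mchr1*. List genes named for the sides, and *Rfx3*, *Drd1* and *Gli1*, were chosen after their values were seen. Alternatives were DESeq2 1.42.0, limma 3.58.1 (voom), DESeq2 size factors, library size only, no filter, a filter of CPM of at least 1 in 4 wells, a length offset, both blocks, no treatment term, and each well left out. Counting the leading transcript only, and the exact test within replicate pairs, were added after the data were seen. The other experiments of the study were not analysed here.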

Additional observations from a re-analysis of the deposited data

Results flagged for a closer look

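Each gene was examined for a well far from the other 3 of its group, on 36 groups of 4 wells (9 genes, by treatment, in CPM and in TPM), by Dixon's test at the 95% level, which chance exceeds in about 1 of 20 groups. *Mchr1* in MCH replicate 2, at 10.1 CPM, stood above the remaining 3 wells of its group, at 9.48 to 9.58 CPM. *Gpr161* in MCH replicate 1, at 59.4 CPM, stood above the others at 53.4 to 54.2 CPM, and *Ift88* in the same well, at 15.3 CPM, stood below the others at 16.4 to 16.6 CPM.

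In *Adcy3* and *Bbs4* the wells of both treatments parted in opposite directions on the 2 sides, so the response to MCH was compared between them. For *Adcy3* the response in replicates 1 and 2 minus that in replicates 3 and 4 was 0.06 on the log2 scale (0.0624, standard error 0.0632, edgeR adjusted *P* = 0.872). For *Bbs4* it was −0.16 (−0.159, standard error 0.0738, edgeR adjusted *P* = 0.646). Neither passed the test.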

How the results depend on the processing

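No alternative called any of the 9 genes with MCH. The number of all genes called, 35 (31 lower, 4 higher), was 171 with DESeq2 (96 lower, 75 higher), 7 with the length offset, 596 with the replicate block (337 lower, 259 higher), 668 with the side block (391 lower, 277 higher) and 4 to 29 with 1 well left out, the lowest without vehicle replicate 4. All wells but vehicle replicate 3 and MCH replicate 1 moved it by over 1.5 times when left out. Between the sides it was 5194, 3118 with the length offset and 4401 to 4970 with 1 well left out, and scaling by library size alone lowered the share of higher calls from 46.3% to 33.7%. For the difference in response it was 4, 12 with DESeq2 and 3 to 277 with 1 well left out, the highest without MCH replicate 2, and all wells but vehicle replicates 1 and 3 moved it by over 1.5 times. The exact test passed for 0 of the 9 genes, and for 1, *Sstr3*, with library size only. Within replicate pairs (a block added after the data were seen) it cannot pass. On the leading transcript alone, *Adcy3* ranked 3, *Sstr3* 2, *Ift88* 6, *Mchr1* 7 and *Tulp3* 8. Differences near 0 changed sign without passing: with MCH, *Tulp3* was 7.7e-05 with DESeq2 size factors, 0.0044 with library size only, 0.0040 without the filter, 0.0095 with the CPM filter and 0.0010 with the replicate block, and *Ift88* was −0.0351 with the length offset. Between the sides, *Mchr1* was −0.00355 and *Adcy3* −0.0240 with library size only, and *Adcy3* −0.00328 with the CPM filter. With 1 well left out, the MCH differences of *Mchr1* ran from −0.0707 to 0.0226, *Adcy3* from −0.00292 to 0.0225, *Tulp3* from −0.0592 to 0.0519, *Bbs4* from −0.00929 to 0.0698, *Ift20* from −0.0659 to 0.0269, *Evc* from −0.44 to 0.13, *Gli3* from −0.0151 to 0.85 and *Rfx4* from −0.40 to 0.20, and the side differences of *Mchr1* from −0.0195 to 0.0906, *Adcy3* from −0.000624 to 0.0256 and *Gpr161* from −0.00477 to 0.0595. *Bbs4* also passed between the sides without MCH replicate 1, 2 or 4. The blocks changed no call among the lists with MCH beyond *Unc119b*, *Npy2r*, *Rfx1*, *Rfx3*, *Drd1* (side block) and the markers *Gad1* and *Slc1a2* (replicate block for the latter). The causes were not tested. The interval of the least abundant gene, *Htr6*, was the widest, at 132 to 191 counts per well.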
